A study of Mus musculus with 6 samples.

Results

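The regions described here are the long non-coding RNAs (lncRNAs) that the deposited table labels as lying in an intron of another gene, on that gene's strand. They were chosen by the table's own relation label, which uses no measured value, and they number 3767 of the 24817 features listed. Of these, 3185 carry NONCODE identifiers (NONMMUT) and 582 carry Ensembl transcript identifiers (ENSMUST). The table's gene column names 1879 host genes for them. The RNA came from RAW264.7, an established mouse macrophage-like cell line, and was sequenced in 2 groups of 3 libraries. Cells of both groups received lipopolysaccharide (LPS), the bacterial cell wall component that activates macrophages, for 24 h, and then an extract of polymethyl methacrylate (PMMA), an acrylic used as bone cement. In LPS_ES_PMMA this cement had been loaded with enoxaparin sodium, a heparin-type anticoagulant, and in LPS_PMMA it was plain. Sample titles name PMMA for the second group, while its columns in the table are headed LPS only, so the plain cement extract is known from the titles and treatment labels alone. The labels do not say whether libraries of a group come from separate cultures, so p-values measure the spread between these libraries, which may be technical.

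A gene is first copied into a precursor RNA that still holds its introns, and the introns are cut out and mostly degraded in the nucleus. Sense intronic lncRNAs are annotated transcripts that sit inside such an intron and point the same way as the gene. Some are transcripts with their own start, and others were catalogued from fragments of precursor RNA or of retained introns. In a sequencing library their reads have the same strand and the same letters as the precursor of the host gene. No source used here gives the strand setting of the counting. A sense intronic lncRNA, its host's precursor RNA and any transcript on the opposite strand therefore cannot be told apart by these counts. In macrophages LPS is sensed by the receptor TLR4, which switches on inflammatory genes through NF-kB and, by another branch, the production of interferon. Interferon in turn induces genes that include the RIG-I family of RNA sensors, and STAT2 helps to carry its signal to the nucleus.

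The first 300 annotated bases are shown for the feature with the lowest log2 fold change between the groups. The same is shown for the one that rose most among those with over 100 reads. Whether the reads counted came from these sequences was not tested. ENSMUST00000201944 is a single exon of 1315 nt on chromosome 5 (115039770 to 115041084, + strand, GRCm38) in an intron of Sppl3, which encodes an intramembrane protease. ENSMUST00000198943 is a single exon of 5241 nt on chromosome 3 (108287881 to 108293121, + strand, GRCm38) in an intron of Sort1, which encodes the sorting receptor sortilin. Both lines are from the GENCODE M21 transcripts and run 5′ to 3′, and no base is in capitals because no motif is marked.
ENSMUST00000201944: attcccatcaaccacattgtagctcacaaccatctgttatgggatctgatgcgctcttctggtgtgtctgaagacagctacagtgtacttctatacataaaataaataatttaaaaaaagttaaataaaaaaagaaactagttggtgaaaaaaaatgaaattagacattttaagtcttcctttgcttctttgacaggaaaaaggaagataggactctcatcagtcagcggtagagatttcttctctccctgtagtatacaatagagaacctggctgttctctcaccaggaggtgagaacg
ENSMUST00000198943: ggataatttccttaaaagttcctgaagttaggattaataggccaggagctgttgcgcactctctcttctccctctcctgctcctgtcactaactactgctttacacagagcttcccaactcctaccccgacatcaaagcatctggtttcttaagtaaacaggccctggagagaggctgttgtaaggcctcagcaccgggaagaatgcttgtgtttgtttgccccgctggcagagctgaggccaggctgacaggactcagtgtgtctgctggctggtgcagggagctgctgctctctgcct
GENCODE M21 lists both as TEC, a class for transcripts whose existence and coding status still await experiments. Their GC contents were 40.38% and 45.81%, and their longest runs of A were 8 and 5 bases.

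Total counts per library over all features lay between 1123551 (LPS_ES_PMMA 2) and 3697638 (LPS_PMMA 1). None of the 10 macrophage marker genes on the marker list is a host of a sense intronic feature, and of 12 markers of other cell types 1 is the host of 1 feature, which had too few reads to be tested. The identity of the cells therefore cannot be read from these regions. Levels between libraries are given below as CPM, reads scaled to a common library total, with totals scaled by edgeR's trimmed mean of M-values (TMM), and levels between features as the authors' FPKM, which divides by length. Scaling matters in these libraries: without TMM factors the median log2 fold change of all 8873 features tested moved from 0.03 to 0.82.

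Most sense intronic features were long single blocks at low level. Their lengths ran from 202 to 11355 nt with a median of 1906 nt, against a median of 1220 nt over all features. For 3332 of them (88.5%) the listed length equals the listed span, so they have no intron of their own. On GENCODE M21, 3759 of 3767 lie within the listed host and 3766 are on its strand. The middle of the feature lay at a median of 42.4% of the way along the host, and the host's median length was 137.8 kb (each host weighted by its features). Median FPKM was 1.04, close to the 1.07 of all features. At a mean over the libraries of at least 10 FPKM there were 178 features, at least 100 FPKM was reached by 13, and 1854 stayed under 1. Reads were present in all 6 libraries for 2313. The 10 features with the highest mean FPKM held 20.01% of all reads counted in sense intronic features.

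Of the 582 Ensembl features, 379 are of the GENCODE type TEC, 92 of the type sense_intronic and 56 are processed pseudogenes, which are DNA copies of spliced messenger RNAs. Their median GC content was 42.55% (range 27.62 to 62.62). A run of at least 10 A bases, at which oligo(dT) primers can anneal within a transcript, was found in 100 of the 582 (17.2%), in 49 of the 262 that were tested (18.7%) and in 51 of the 320 that were not (15.9%). Sequence shared with messenger RNAs was rare. Only 6 of the 582 had at least 50% of their 31-base words in a protein-coding transcript, and 5 of these are processed pseudogenes. Examples are Gm20689, a copy of the Rab8b message with 100% of its words shared at a mean of 3.90 FPKM, and Gm11575, a copy of the Sec61g message with 61.1% shared at 6.40 FPKM. None of the 38 Ensembl features with at least 10 FPKM was among the 6.

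Summed over the class, the libraries of the groups overlapped. Sense intronic features held 4.005%, 5.84% and 3.15% of the counts in LPS_ES_PMMA 1 to 3 and 1.96%, 2.74% and 3.33% in LPS_PMMA 1 to 3. Means were 4.33% ± 1.37 and 2.68% ± 0.69 (SD, n = 3 each), a difference that gave p = 0.2 in an exact two-sided permutation test, for which the smallest possible p is 0.1. Without the 5 most abundant features of the table in the total, the shares were 11.5%, 10.9% and 10.3% against 8.97%, 10.0% and 9.89%. On that total the libraries no longer overlap, and p = 0.1, the smallest the exact test can give.

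Of the 3767 features, 1602 had enough reads to be tested with edgeR's quasi-likelihood test, and 2165 did not. After Benjamini-Hochberg adjustment over all 8873 features tested, 29 sense intronic features rose in LPS_ES_PMMA and 24 fell, in 48 host genes. That is 3.31% of those tested, beside 4.76% of all features called in either direction, 2.18% called higher and 2.58% called lower. For comparison, the intronic antisense features had 15 of 247 tested past the threshold (7 higher, 8 lower) and the exonic sense features 37 of 1051 (17 higher, 20 lower); whether these shares differ was not tested. The median log2 fold change of tested sense intronic features was 0.11 against 0.03 of all features. In 260 tested sense intronic features all LPS_ES_PMMA libraries were above all LPS_PMMA libraries and in 174 they were below, while non-overlap in either direction held for 30.8% of all features tested (16.2% higher, 14.6% lower). The filter on low counts also bears on the calls: 12 of the 29 called higher had enough reads in LPS_ES_PMMA libraries only and 2 of the 24 called lower in LPS_PMMA libraries only, against 119 and 3 of the 1602 tested. All 53 called features had non-overlapping libraries in TMM-scaled CPM, the scale on which the calls rest, and a change of at least 1.13 on the log2 scale in either direction. In the authors' FPKM both called Rsbn1 features overlap. NONMMUT044574.2 had 1.58 in LPS_ES_PMMA 1 against 1.49 in LPS_PMMA 1, and NONMMUT044575.2 had 3.73 against 3.58.

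The number of calls in each direction depended on the scaling. With column totals in place of TMM, 45 sense intronic features were called higher and 2 lower, and 30 of the 53 calls were shared. All 24 features called lower kept a negative log2 fold change on that scale, but the test still called only ENSMUST00000201944 and NONMMUT085775.1. Single libraries also mattered. The calls numbered 3, 10 and 5 without LPS_ES_PMMA 1, 2 and 3, and 12, 3 and 8 without LPS_PMMA 1, 2 and 3. Only ENSMUST00000201944, NONMMUT085775.1 and ENSMUST00000198943 passed in all 6 of these fits, 12 more passed in some, and 38 in none.

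**Figure D1:**
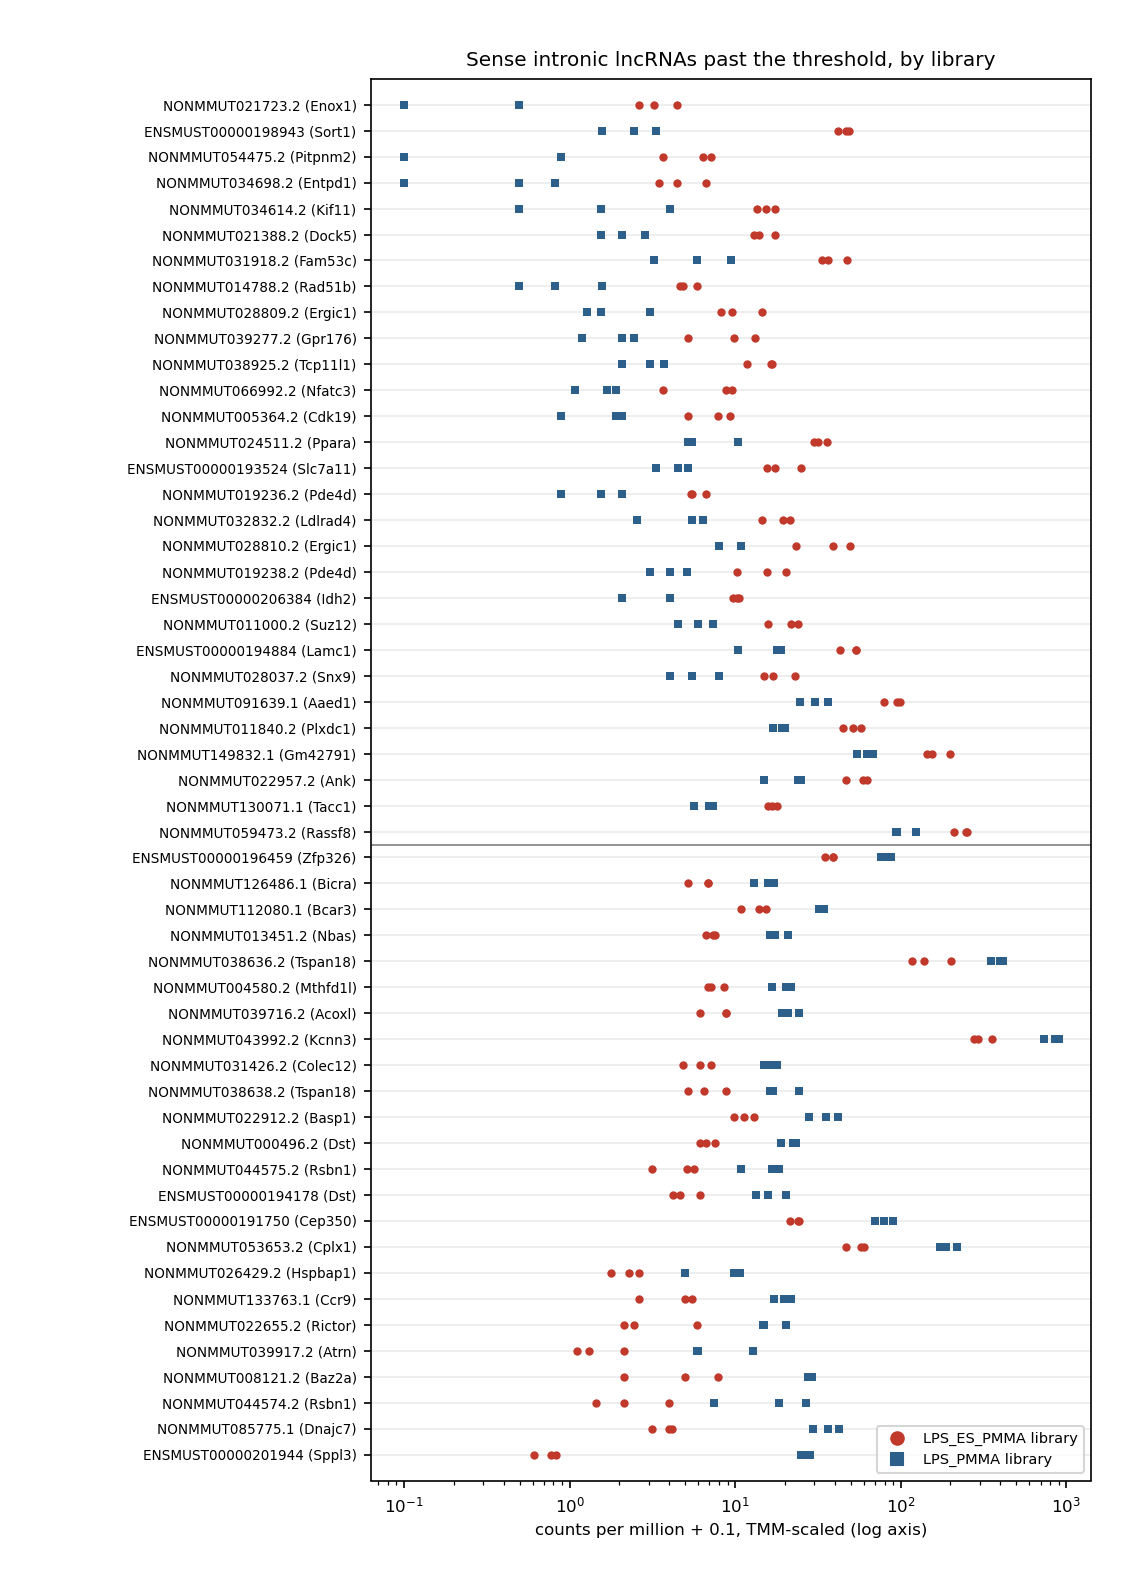
CPM plus 0.1 (log axis) of the 53 called sense intronic features in each library, red circles for LPS_ES_PMMA and blue squares for LPS_PMMA, ordered by log2 fold change with the 24 lower features below the line. The groups are separate in every row, and the widest gaps are those of the Sppl3 feature at the bottom and the Sort1 feature near the top.

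The steepest fall was in the Sppl3 intron. ENSMUST00000201944 had 3, 1 and 2 reads in the LPS_ES_PMMA libraries against 51, 72 and 71 in the LPS_PMMA libraries. Every control library was more than 10 times as high as every treated one on the CPM scale, with means of 0.64 ± 0.12 and 26.3 ± 1.74 CPM (SD, n = 3 each). Its log2 fold change was -5.23 (SE 0.34, edgeR adjusted p = 0.0021). It stayed past the threshold in all 16 other fits, with adjusted p between 1.6e-10 and 0.039. The feature had enough reads in LPS_PMMA libraries only. Its direction was therefore set by the filter on low counts and is no support for a fall of the host.

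Next came NONMMUT085775.1, a spliced feature of 313 nt on chromosome 11 (100594395 to 100595119, - strand) in Dnajc7, which encodes a co-chaperone of HSP70 and HSP90. Its reads were 16, 6 and 12 against 86, 92 and 82, or 3.66 ± 0.54 against 36.0 ± 6.34 CPM, and all treated libraries were low. The log2 fold change was -3.27 (SE 0.29, edgeR adjusted p = 0.0028). NONMMUT044574.2 in Rsbn1, which encodes a nuclear protein, followed at -2.78 (edgeR adjusted p = 0.039). It rested on few and uneven reads, 16, 4 and 4 against 15, 68 and 51, and at 7.37 CPM LPS_PMMA 1 was the nearest control to the treated libraries, which lay between 1.35 and 3.89. NONMMUT008121.2 lies on chromosome 10 (128106311 to 128106853, + strand) in Baz2a, which encodes a subunit of a chromatin complex that silences ribosomal RNA genes. It held 20, 4 and 23 reads against 56, 70 and 81, a log2 fold change of -2.48 (SE 0.42, edgeR adjusted p = 0.021). NONMMUT043992.2 on chromosome 3 (89642271 to 89644707, + strand), in the potassium channel gene Kcnn3, was the most abundant called feature. Its reads were 1143, 577 and 1057 against 1828, 2183 and 2044, which is 278, 292 and 356 against 899, 859 and 738 CPM. The 3 treated libraries stood close together and well below the controls, with a log2 fold change of -1.43 (SE 0.24, edgeR adjusted p = 0.022).

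Other falls were smaller or rested on fewer reads. ENSMUST00000191750 in Cep350, a centrosome gene, stood at 23.8, 21.3 and 24.3 CPM against 70.3, 89.7 and 79.1 (log2 fold change -1.78). NONMMUT053653.2 in Cplx1, which encodes a regulator of vesicle fusion, stood at 59.98, 57.7 and 46.8 CPM against 172, 218 and 189 (-1.81). NONMMUT038636.2 in the tetraspanin gene Tspan18 stood at 139, 117 and 202 CPM against 416, 400 and 349 (-1.35). Each shows separate groups with no shared library level. The fall was least for ENSMUST00000196459 in Zfp326, at -1.13.

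The rises were led by the Sort1 intron. The LPS_ES_PMMA libraries held 201, 82 and 138 reads of ENSMUST00000198943 against 3, 6 and 9 in the controls, or 45.6 ± 3.72 against 2.36 ± 0.89 CPM (SD, n = 3 each). The treated libraries were alike once depth was allowed for, and the log2 fold change was 4.22 (SE 0.34, edgeR adjusted p = 0.0025; 5.3e-13 to 0.039 in the 16 other fits). NONMMUT021723.2 in Enox1 had a fitted value as high, but it held 13, 5 and 13 reads against 0, 1 and 0, and such a fit depends on the prior count. NONMMUT034614.2 in Kif11, which encodes a kinesin needed for the mitotic spindle, held 63, 34 and 40 reads against 8, 1 and 4 (log2 fold change 3.03, edgeR adjusted p = 0.032). NONMMUT021388.2 in Dock5, which encodes an activator of the GTPase Rac, held 53, 34 and 41 against 4, 7 and 4 (2.80, edgeR adjusted p = 0.012). In both features each treated library exceeded the highest control by several fold. The features of Sort1, Enox1, Kif11 and Dock5 had enough reads in LPS_ES_PMMA libraries only. Their direction was therefore set by the filter on low counts and is no support for a rise of the host.

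NONMMUT024511.2 in Ppara, the gene of a nuclear receptor that controls fatty acid oxidation, held 123, 71 and 94 reads against 21, 13 and 15 (log2 fold change 2.23, edgeR adjusted p = 0.017). ENSMUST00000193524 in Slc7a11, which encodes the cystine importer that feeds glutathione synthesis, held 71, 49 and 46 reads against 9, 13 and 9 (2.15, edgeR adjusted p = 0.017). The most abundant riser was NONMMUT059473.2 in Rassf8, at 250, 209 and 247 CPM against 94.4, 124 and 94.2, a modest change of 1.17 with separate groups. Called features that rose had a median mean FPKM of 2.65 and those that fell 5.87, with 2.73 for all tested sense intronic features.

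Hosts often carried several features. One feature was listed for 1170 hosts and at least 2 for 709, and 20 hosts with at least 10 features held 406 of them. Zfhx3, which encodes a large homeodomain transcription factor, led with 65. Features of a host share a gene and may share reads, so they are no replicates of each other. Among 307 hosts with at least 2 tested features, 5 had 2 called, always in one direction: Rsbn1, Dst and Tspan18 lower, and Ergic1 and Pde4d higher. No host had calls both ways. In Ergic1, NONMMUT028809.2 (39, 16 and 43 reads against 6, 3 and 4) had enough reads in LPS_ES_PMMA libraries only, as had NONMMUT019236.2 in Pde4d. Their direction was set by the filter on low counts, so in these 2 hosts the shared direction is no support for a rise.

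Pde4d encodes a phosphodiesterase that breaks down cyclic AMP, the second messenger that restrains macrophage activation. Of its 36 features 7 were tested, and 2 passed (NONMMUT019236.2 at 2.02 and NONMMUT019238.2 at 1.91 on the log2 scale). Of the 7, 6 had enough reads in LPS_ES_PMMA libraries only, so their direction was set by the filter on low counts and is no support for a rise of the host. The 7 stretch from 55.6% to 91.5% of the way along the gene. NONMMUT019238.2 held 64, 40 and 30 reads against 6, 10 and 14. Summed over the 36 features, the level was 110, 157 and 74.1 CPM in LPS_ES_PMMA and 24.1, 27.2 and 32.1 CPM in LPS_PMMA. The lowest treated library was above the highest control.

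Hdac9, a gene of a class IIa histone deacetylase, carried 25 features, and not one had enough reads to be tested; the largest total over the 6 libraries was 18. Their summed reads were 58, 37 and 47 with enoxaparin against 1, 2 and 6 without, or 14.1, 18.7 and 15.8 CPM against 0.49, 0.79 and 2.17 CPM. In 18 of the 25 no read was counted in any LPS_PMMA library, and each of the 25 had a read in LPS_ES_PMMA. How many features of such low counts lack reads in 1 group was not counted. Reads were in general found for more sense intronic features in LPS_ES_PMMA 1 to 3 (3365, 3134 and 3247) than in LPS_PMMA 1 to 3 (2898, 2998 and 3122). Hdac9 was singled out after its values were seen, and the sum was not tested. Among all 20 hosts with at least 10 features, the summed CPM of the groups did not overlap in 6 (30%), beside 30.8% of all single features tested: higher in Hdac9, Pde4d, Immp2l and Maml2, and lower in Pid1 and Rere.

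Several other hosts had tested features on one side of 0 without a call. All 9 of Pcdh7, which encodes a protocadherin, lay between 0.50 and 1.09, but their summed CPM overlapped (297, 411 and 206 against 154, 202 and 208). All 5 of Tenm4, which encodes a teneurin, lay between -1.69 and -1.07, with sums of 43.0, 74.0 and 30.3 against 112, 137 and 112 CPM. The 33 tested features of Zfhx3 spread from -1.50 to 1.21, 22 of them above 0, with none called.

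**Figure D2:**
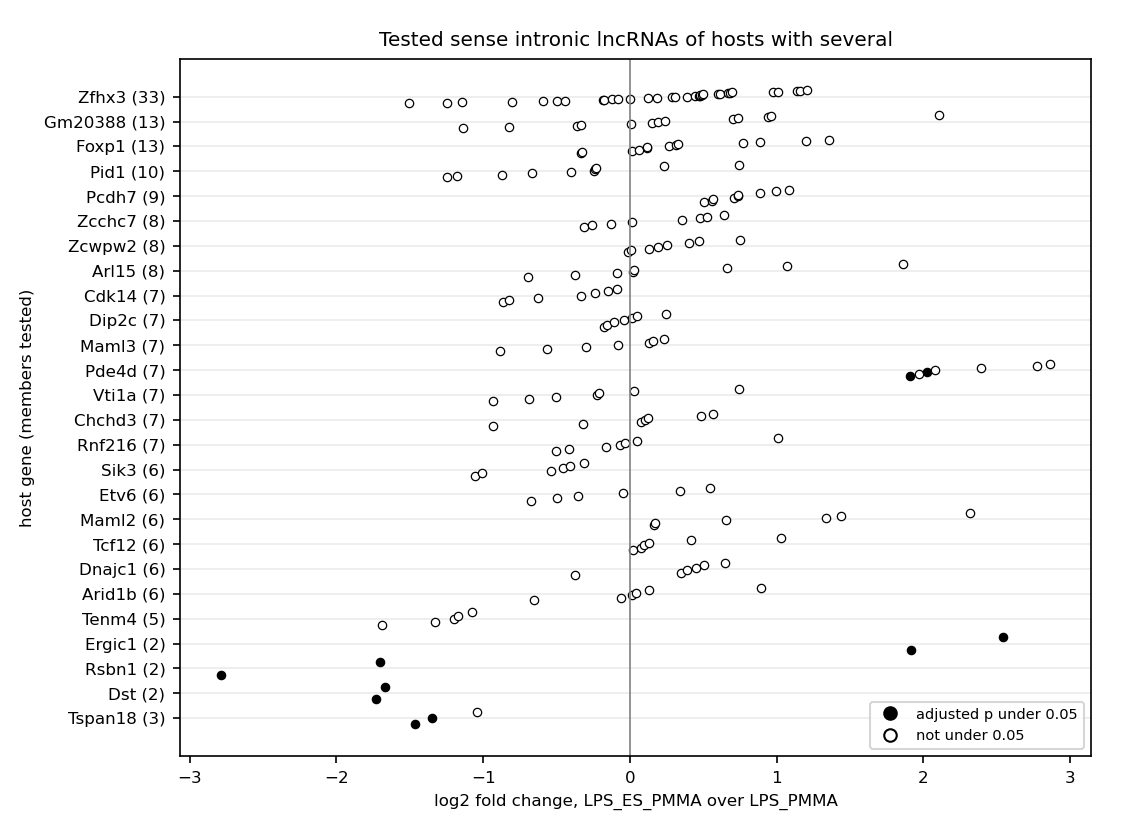
Log2 fold change (LPS_ES_PMMA over LPS_PMMA) of each tested sense intronic feature in hosts with at least 6 tested, plus Tenm4 and hosts with 2 called; filled circles passed an adjusted p of 0.05. The 2 filled Pde4d circles lie at 1.91 and 2.02, and 6 of its 7 features were tested through their reads in LPS_ES_PMMA alone, while Zfhx3 spans -1.50 to 1.21.

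Host genes were also read against lists of genes for pathways that fit macrophages. Their counts stand beside 2.18% of all features called higher and 2.58% called lower. Of 55 RIG-I and interferon genes 1 was a host, with 1 feature that was not tested. Of 57 LPS and NF-kB response genes 3 were hosts, with 2 tested features and no call: NONMMUT045979.2 in the kinase gene Lyn at -0.45 and NONMMUT096175.1 in Tab1 at -1.06 (edgeR adjusted p = 0.47 and 0.63). The Tab1 value rests on LPS_ES_PMMA 3, in which NONMMUT096175.1 had 0 reads against 199 and 98 in the other treated libraries and 143, 175 and 178 in the controls; without that library it was -0.50. The NRF2 oxidative stress list gave 1 tested feature, that of Slc7a11, which rose, and the proliferation list 4 tested with 1 higher, that of Kif11. The Kif11 feature was tested through its reads in LPS_ES_PMMA libraries only. Chromatin and transcription regulators gave 55 tested features with 0 called in either direction (median 0.13, 37 above 0), and macrophage identity and actin genes 19 with 0 called (median 0.01). RNA processing factors gave 11 tested and 0 called, with a median of 0.42; the closest was ENSMUST00000193609 in Mbnl1, a splicing regulator, at 1.18 (edgeR adjusted p = 0.074). Alternative activation gave 3 tested, osteoclast genes 2, and lysosome, lipid and sterol genes 1, with 0 called in each.

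The listed positions were then compared with the annotation. As listed, 91 of the 3332 unspliced features (2.73%) overlapped at least 100 exon bases of another annotated transcript, and 3 (0.09%) those of a protein-coding transcript, so the label intronic holds for the coordinates in the table. The table also holds transcripts that the authors assembled from their reads (MSTRG), whose coordinates come from where reads were placed. The ends of these transcripts were compared with the ends of protein-coding transcripts in stretches of 10 Mb. In 61 of 258 stretches at least 4 assembled loci shared 1 offset, within 60 bp, and more loci than at any other offset. The offset was not 0 in any of the 61: its size ran from 11.5 to 891 kb, with a median of 133 kb. The largest was in a stretch of chromosome 9 (4 loci, 3 at the next best), between neighbours at -88688 and -92720 bp. On chromosome 15, stretches with too few loci gave offsets near 0: 34 bp (2 loci, 1 at the next best) and 186 bp (3 loci, 1 at the next best). How often loci share an offset by chance was not tested. In 37 of the 61 stretches the offset matched, within 200 bp, that of another stretch of the same chromosome. On chromosome 11 all 7 stretches gave between -109.21 and -109.12 kb, and on chromosome 3 the first 3 gave -92.67, -92.67 and -92.69 kb. This comparison was chosen after the data were seen. The submitters' processing notes name mm10, and no other source used here gives the assembly on which the reads were placed.

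**Figure D3:**
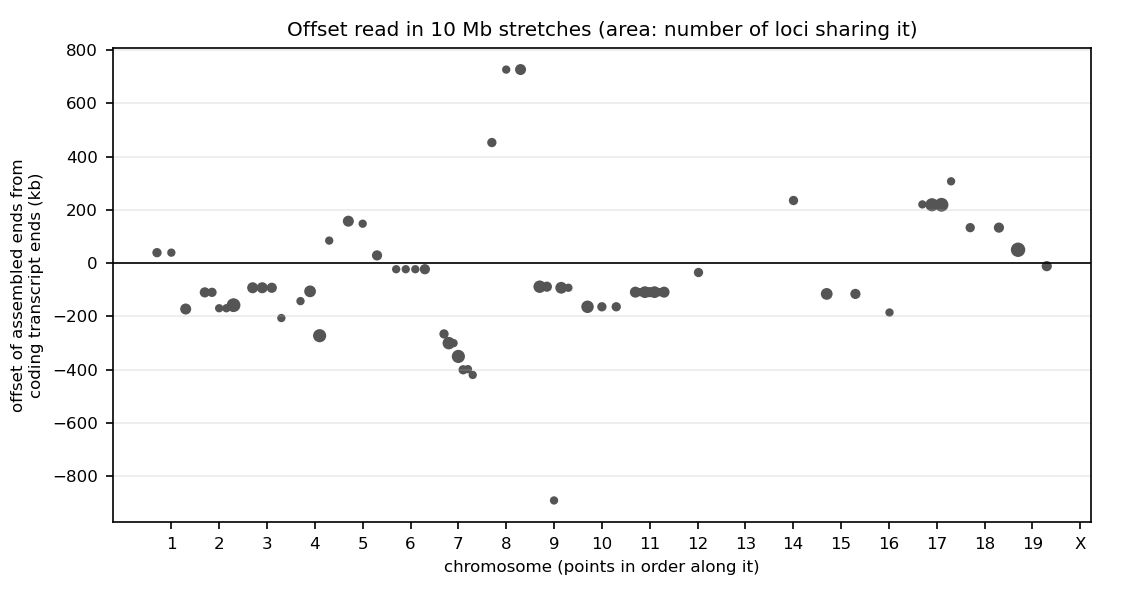
Offset in kb between ends of assembled transcripts and ends of protein-coding transcripts in the 61 stretches of 10 Mb where it could be read, by chromosome in order along it, with area proportional to the number of loci sharing it. Neighbouring stretches often share a level, as the 7 of chromosome 11 do near -109 kb, and no point is at 0.

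The offset around a feature could be read, with loci on both sides, for 995 of the 3767 sense intronic features, 860 of them unspliced. The share on exons of protein-coding genes after this move differed by abundance. Among the 63 unspliced features with at least 10 FPKM, 42 (66.7%) then covered at least 100 protein-coding exon bases. Moved by the same distance the other way 8 did (12.7%), and as listed 0 did. Among the 403 under 1 FPKM the counts were 122 (30.3%) with the offset and 98 (24.3%) the other way. For 228 of the 282 features on exons at the offset, the gene there was not the listed host, and 178 of the 282 (63.1%) were on that gene's strand. Which place the reads of a feature came from was not tested.

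**Figure D4:**
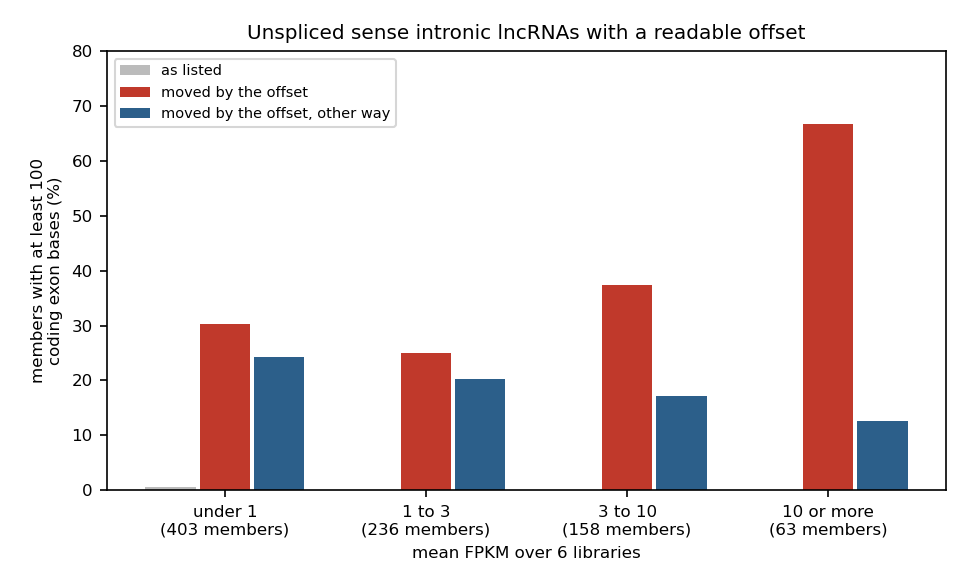
Percent of unspliced sense intronic features with a readable offset that cover at least 100 protein-coding exon bases, by mean FPKM over the libraries, as listed (grey), moved by the offset (red) and moved by it the other way (blue). The red bar reaches 66.7% at 10 FPKM or more, where the blue bar is at 12.7% and the grey one at 0.

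Among the features of highest level, NONMMUT050710.2 and NONMMUT050709.2, listed in the corepressor gene Rere at means of 422 and 184 FPKM, lay at the offset of 84.5 kb (5 loci, 3 at the next best) over exons of Eno1, with 764 and 1314 exon bases. Eno1 encodes the glycolytic enzyme enolase. NONMMUT050710.2 stood at 314, 150 and 521 FPKM in LPS_ES_PMMA and 446, 631 and 471 in LPS_PMMA, and its groups overlap. NONMMUT039525.2, listed in Ctdspl2 at 150 FPKM, lay over 354 exon bases of B2m, the light chain of MHC class I, at an offset read less firmly (4 loci, 3 at the next best, on 1 side). On the TMM scale NONMMUT039525.2 stood at 184, 221 and 253 CPM against 364, 364 and 278, lower in every treated library, but the difference did not pass the test (log2 fold change -0.61, edgeR adjusted p = 0.20). In the authors' FPKM, which carry no such scaling, its groups overlap (138, 144 and 142 against 135, 182 and 162). ENSMUST00000215601 in Clmp, a cell adhesion gene, had the highest mean FPKM of all, 478, with libraries from 438 to 528. On the TMM scale ENSMUST00000215601 stood at 171, 202 and 261 CPM against 366, 286 and 264, a log2 fold change of -0.53 that did not pass the test (edgeR adjusted p = 0.29). It is a spliced 358 nt transcript of the type sense_intronic, and at its offset it met 18 exon bases. No feature among the 10 of highest FPKM other than NONMMUT043992.2 passed the test.

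For Zfhx3, the host with most features, all 65 had a readable offset (727 kb; 4 loci, 3 at the next best). Moved by it, 21 lay within Nfat5, a gene of an osmotic stress transcription factor, and 26 within Wwp2, a ubiquitin ligase gene. The tested features were 19 of the 21 and 14 of the 26, and 0 of the remaining 18. Levels were a median of 10.1 FPKM in the Nfat5 part, 2.03 in the Wwp2 part and 0.19 for the 15 that fell in no coding gene. The highest, NONMMUT129404.1 at 94.5 FPKM, covered 676 exon bases of Nfat5. Log2 fold changes ran from -0.18 to 1.16 in the Nfat5 part (median 0.49) and from -1.50 to 1.21 in the Wwp2 part (median -0.31), with none called.

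Among called features the offset was readable for 16, and 12 of them covered at least 100 protein-coding exon bases there (7 lower, 5 higher), against 0 the other way and 0 as listed. Beside this, 282 of all 860 unspliced features with a readable offset did so (32.8%), and 21.0% the other way. That share depended on level, with 66.7% at 10 FPKM or more. The share among tested features was not counted, so 12 of 16 cannot be read as a trait of called features. Of the 7 called falls on exons 3 met interferon genes, and so did 1 more fall at an offset read less firmly. NONMMUT043992.2 covered 1333 exon bases of Adar, the interferon-inducible enzyme that edits double-stranded RNA, at -92.67 kb (11 loci, 5 at the next best). The span of NONMMUT085775.1 held 384 exon bases at the 5′ end of Dhx58, which encodes the RIG-I-like receptor LGP2, at -109.19 kb (7 loci, 4 at the next best). This count takes in the feature's own intron, and the spliced feature is only 313 nt long. NONMMUT008121.2 covered 142 bases, the first exon, of Stat2 at -164.13 kb (4 loci, 3 at the next best). ENSMUST00000201944 covered 101 exon bases of Oasl2, an interferon-induced relative of the oligoadenylate synthetases, just over the minimum of 100. Only 3 loci, all on 1 side, gave its offset of 138.0 kb, with 2 at the next best. All 4 are on the strand of the gene met.

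**Figure D5:**
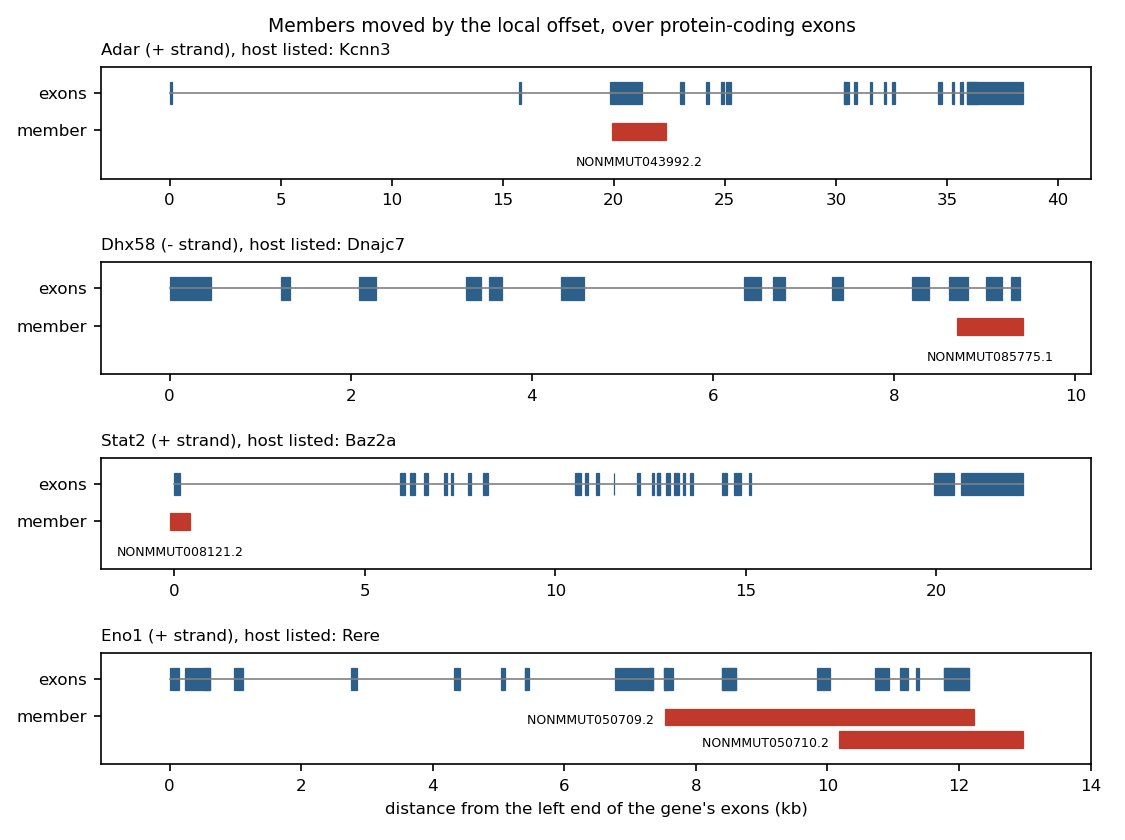
Features moved by the local offset (red) below the protein-coding exons (blue) of the gene met, in kb from the left end of the exons. NONMMUT043992.2 starts with the long internal exon of Adar, NONMMUT085775.1 ends at the right end of Dhx58, NONMMUT008121.2 covers the left end of Stat2, and the Rere features cover the right part of Eno1.

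The lists were also read by the gene at the offset, counting offsets from at least 3 loci, which may lie on 1 side. Then 6 sense intronic features covered exons of the 55 RIG-I and interferon genes. The 4 tested are the falls just named, all called lower, beside 2.58% of all features called lower. ENSMUST00000201944 and NONMMUT085775.1 passed in all 16 other fits, while NONMMUT008121.2 and NONMMUT043992.2 did not: 2 of the 4 were called with column totals, with a replicate block, and without any 1 library other than LPS_ES_PMMA 2, where 3 were. ENSMUST00000201944 was tested through its reads in LPS_PMMA libraries only, so its direction was set by the filter on low counts. The other 3 were tested through both groups. The other 2 had too few reads: NONMMUT009754.2, listed in Rad50 and over exons of Irf1, an interferon regulatory factor, held 3, 1 and 0 reads against 16, 5 and 3, and NONMMUT045552.2, over exons of Gbp2, held 1 read in LPS_ES_PMMA and 2 in LPS_PMMA. No other list had a call when read this way. Chromatin and transcription regulators had 9 tested with a median of 0.42, RNA processing factors 5 with 0.39 and macrophage identity genes 2 with -0.26. NONMMUT068328.2, over exons of the osteoclast gene Acp5, gave -0.63 with overlapping groups (28, 7 and 22 reads against 33, 13 and 20). NONMMUT068284.2, over exons of Keap1, which holds NRF2 in check, gave -0.92 (edgeR adjusted p = 0.19).

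The other called features over exons at the offset met genes of various roles. Of the falls, NONMMUT044574.2 and NONMMUT044575.2 (-2.78 and -1.70), both listed in Rsbn1, covered 999 and 1139 exon bases of Magi3, a scaffold protein gene on the opposite strand. NONMMUT039716.2, listed in Acoxl, fell (-1.43) and covered 110 of Bcl2l11, which encodes the death-promoting protein BIM. NONMMUT126486.1, listed in Bicra, fell (-1.28) and covered 246 of Bbc3, which encodes PUMA, on the opposite strand. The 5 that rose met 5 genes. NONMMUT024511.2, the Ppara feature, covered 885 exon bases of Gtse1, a microtubule-binding protein gene, and NONMMUT011000.2, listed in Suz12 (1.78; 65, 43 and 71 reads against 9, 15 and 20), covered 498 of Atad5, which unloads the replication clamp. NONMMUT011840.2, listed in Plxdc1 (1.46), covered 2175 of Fbxl20, an F-box protein gene, and NONMMUT028810.2, listed in Ergic1 (1.92), covered 546 of Neurl1b, a ubiquitin ligase gene. NONMMUT031918.2, listed in Fam53c (2.69), covered 1633 of Cdc23, a gene of the anaphase-promoting complex, on the opposite strand. At offsets read less firmly, called features also met Lrrc8d, Hmgb1, Slc9a5 and, with 945 exon bases in all under ENSMUST00000198943, Psrc1, a spindle protein gene (4 loci against 3). Of 5145 words of 31 bases in ENSMUST00000198943, 0 occur in Psrc1 transcripts, and of 1285 in ENSMUST00000201944, 0 occur in Oasl2 transcripts. Those words are of the annotated sequences at the listed positions, so they cannot show where the reads counted came from.

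Promoters of the interferon genes met at the offset were searched for GAAA, any 2 bases and GAAA again, the core of the element bound by the interferon-activated factor ISGF3, on both strands, in the RefSeq window from 250 bases before to 50 after the start (GRCm38.p6). Of all 32851 promoters 1131 (3.44%) held it, and of all 27025 genes 1079 (3.99%). Stat2 held 1 match. Promoters of Adar and Oasl2 held no exact match in this window, and Dhx58 was not in the promoter table. An Adar promoter holds GAAAGTGAAC, which differs from the pattern in its last letter. Near matches were not counted in any promoter. Of the genes whose features were not tested, Gbp2 held 1 match and both promoters of Irf1 held none. B2m, whose feature did not pass the test, held 1. The Stat2 and B2m promoters, which belong to the tested features, are shown with the match in capitals, 5′ to 3′ on the + strand, at chr10:128270248-128270547 for Stat2 and chr2:122147437-122147736 for B2m.
Stat2 promoter: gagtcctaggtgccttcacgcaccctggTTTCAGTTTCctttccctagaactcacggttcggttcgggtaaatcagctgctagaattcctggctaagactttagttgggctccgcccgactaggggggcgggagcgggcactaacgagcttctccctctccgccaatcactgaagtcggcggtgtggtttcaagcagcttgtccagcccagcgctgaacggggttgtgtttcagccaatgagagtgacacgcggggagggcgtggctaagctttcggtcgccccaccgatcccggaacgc
B2m promoter: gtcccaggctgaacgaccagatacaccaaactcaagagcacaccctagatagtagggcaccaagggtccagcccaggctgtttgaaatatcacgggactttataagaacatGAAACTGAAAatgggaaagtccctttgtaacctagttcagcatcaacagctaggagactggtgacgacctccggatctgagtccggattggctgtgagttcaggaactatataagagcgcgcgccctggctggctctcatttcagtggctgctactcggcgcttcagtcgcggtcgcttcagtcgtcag
The Stat2 match reads on the opposite strand. Among genes met at the offset by called features, 1 of 7 with a promoter in the table held the motif where the feature fell and 0 of 7 where it rose. A match is a description of letters, and binding was not measured.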

How the data were processed

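RNA of 6 libraries of RAW264.7 cells, 3 per group, was analysed from the lncRNA table of the series, with groups taken from the sample titles. Whole-number read counts per lncRNA transcript were used as deposited, without normalization, per the file headers. FPKM was used as deposited, per the file headers. The deposited comparison also has log2 fold change, p-value and q-value columns, which were not used for calls. Transcript length is as deposited by the authors. The submitters' processing notes name mm10; no source used here gives the aligner, counter, strand setting or counting rule. 0 value columns were left unused.

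Features were kept by filterByExpr (minimum count 10, minimum total 15), scaled by TMM and tested by quasi-likelihood F-test (edgeR 4.0.16, R 4.3.3), with Benjamini-Hochberg adjustment over the 8873 features tested and a threshold of 0.05. The test was checked on simulated counts. An approximate SE was taken as the absolute log2 fold change divided by the square root of its F statistic. Depth was 1123551 to 3697638 counts per library, and 3 counts in 1 library equal 0.729 to 1.52 CPM on the scaled totals. No molecular identifiers were given, so reads need not be independent molecules. Replicate pairs differed by more than sampling noise (chi-square per degree of freedom 3.20 to 6.35 over sense intronic features).

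Offsets were read from ends of assembled transcripts within 5 Mb of a feature, up to 1 Mb, shared by at least 4 loci within 60 bp. Exons, hosts and transcript sequences are of GENCODE M21 (GRCm38) and promoters of RefSeq. Named features are up to 12 called features at either extreme with non-overlapping groups, the 10 of highest mean FPKM, the tested features of the 5 hosts with most, up to 5 and every called feature per gene list, and the 5 most abundant called ones; the text gives values for a part of them. Members and lists were chosen with earlier results of these data known. Alternatives were DESeq2 1.42.0, limma 3.58.1 on log2(FPKM + 0.1) and log2(FPKM + 1), other scalings and filters, a replicate block and leaving out each library.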

Additional observations from a re-analysis of the deposited data

How the results depend on the processing

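Calls numbered 53 (29 higher, 24 lower), 5 hosts had 2 called features and 2 called features had a host on a list. Scaling by column totals gave 45 higher and 2 lower, with 2 such hosts. Library totals implied by FPKM gave 35 (3 lower), with 2 hosts. Testing without a filter gave 12 (6 higher, 6 lower), 0 hosts and 1 on a list. A mean FPKM of at least 1 gave 19 (10 higher, 9 lower), 0 hosts and 1 on a list. limma on log2(FPKM + 0.1) gave 23 (2 lower) with 1 host, and limma on log2(FPKM + 1) gave 57 higher and 6 lower. Leaving out 1 library gave 3 to 12 calls (1 to 6 higher, 2 to 6 lower), 0 to 1 hosts and 0 to 1 on lists, and group differences in the share of counts of 0.904 to 2.25 percentage points. With a replicate block 3 were called (1 higher, 2 lower), 0 hosts and 0 on lists. Deviations from the group means correlated at -0.018, -0.027 and -0.090 between same-numbered libraries. Between libraries of other numbers these correlations ran from -0.071 to 0.106. With 3 libraries per group such values cannot show whether libraries are paired. DESeq2 called 59 and edgeR's robust fit 59. Protein-coding exons alone put 0.0900% of unspliced features on an exon as listed. Offsets from 3 loci gave 61 of 94 abundant unspliced features on exons (18 the other way), and with spliced ones it was 53 of 77 (14 the other way), alternatives added after the data were seen. Exon bases of spliced features were counted over the whole span, their own introns included. Of 112 named features without a call, 30 had the other sign with column totals and at most 22 in any other fit. The cause of these changes was not tested.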
